A study of Mus musculus with 4 samples.

Results

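The genes described are 10 transcription factors and cofactors of early natural killer (NK) and innate lymphoid commitment: Nfil3, Ets1, Tox, Tox2, Zbtb16, Hhex, Rora, Gata3, Runx3 and Cbfb. They were chosen by role and looked up by symbol, and all 10 had a row among the 21025 gene rows of the deposited tables. The series concerns how far NK cell development depends on Nfil3, and its RNA-seq compared NK cell subsets sorted from the livers of C57BL/6 mice. The sort took NK1.1+ NKp46+ cells without T-cell receptor beta. Those with surface TRAIL, a ligand of death receptors, and no CD49b form the TRAIL+ group (2 libraries), and those with CD49b and no TRAIL the CD49b+ group (2 libraries). The labels used here give no knockout, treatment, age or sex, and do not say whether mice were pooled or whether each replicate is another mouse. The p-values thus reflect spread among these libraries that may be only technical. Because these are bulk samples, fewer cells that express a gene and less RNA per cell cannot be told apart.

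As background, Nfil3 (also called E4BP4) is a basic leucine zipper factor that acts downstream of interleukin-15 and is required for conventional NK cells to develop. Id2 and Eomes are among the genes placed below it, and Tox, Ets1, Runx3 with its partner Cbfb, Gata3, Zbtb16 and Rora each act at steps of innate lymphoid development. In liver, TRAIL+ CD49b- cells are regarded as a resident population related to type 1 innate lymphoid cells (ILC1), and CD49b+ cells as conventional circulating NK cells.

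Several of these factors are known to bind the control regions of others in the group or their own. The sequences of 250 bases before the annotated start of a gene were therefore searched, from RefSeq (GRCm38.p6), which held 12 such windows for 7 of the 10 genes. The regions below are the only windows of these genes with a match, beside the nearer start of Runx3 for comparison. They are given 5′ to 3′ on the gene's strand, with matches in capitals.
Nfil3, chr13:52981040-52981289, minus strand: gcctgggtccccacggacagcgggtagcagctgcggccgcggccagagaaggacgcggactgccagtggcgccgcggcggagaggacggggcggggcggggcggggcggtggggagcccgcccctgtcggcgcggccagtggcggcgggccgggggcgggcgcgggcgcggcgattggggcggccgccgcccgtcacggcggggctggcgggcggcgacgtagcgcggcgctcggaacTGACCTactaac
Runx3 distal start, chr4:135120395-135120644, plus strand: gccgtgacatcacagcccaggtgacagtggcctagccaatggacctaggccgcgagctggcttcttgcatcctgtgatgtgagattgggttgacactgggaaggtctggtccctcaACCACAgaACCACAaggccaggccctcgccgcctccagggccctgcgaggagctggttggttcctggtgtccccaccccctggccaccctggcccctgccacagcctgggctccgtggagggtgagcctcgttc
Runx3 proximal start, chr4:135152295-135152544, plus strand: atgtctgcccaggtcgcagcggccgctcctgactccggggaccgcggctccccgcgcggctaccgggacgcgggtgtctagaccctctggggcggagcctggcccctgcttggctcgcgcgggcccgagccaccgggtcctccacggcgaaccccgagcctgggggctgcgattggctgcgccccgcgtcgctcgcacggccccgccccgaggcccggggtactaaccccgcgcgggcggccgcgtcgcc

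The Nfil3 window held 1 match to AGGTCA, the core of the sites bound by ROR and REV-ERB nuclear receptors such as the product of Rora. It lay on the opposite strand, so it reads TGACCT, from 12 to 7 bases before the start. The distal Runx3 window held 2 matches to TGTGGT, the core bound by RUNX proteins, again on the opposite strand, as ACCACA from 134 to 129 and from 126 to 121 bases before the start. The proximal Runx3 window held no match. Searched on both strands, TGTGGT was found in 14.0% of all 32851 windows of the same length and AGGTCA in 14.0%, and each was found in 1 of the 12 windows of these genes. The other motifs searched were TTACGTAA and TTATGTAA for NFIL3 itself (0.113% and 0.819% of all windows), GATAAG for GATA factors (6.55%) and CCGGAAG for ETS factors (6.91%), and none was in a window of these genes. A match is a description of letters and not a binding site, and no motif searched shares letters with another at these positions. The RPKM rows do not tell the Runx3 starts apart.

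Of the 10 factors, Tox was the one called as different between the subsets. Of the 9 tested, 1 was higher in TRAIL+ cells and 0 were lower (limma on log2(RPKM + 1), Benjamini-Hochberg adjusted p threshold 0.05, n = 2 per group). Tox was also the only one of the 9 with an unadjusted p under 0.05 (20.0% of all tested genes had one), and voom on the reads likewise called 1 higher and 0 lower. Over all 10047 genes tested, 8.62% were called, 4.76% higher and 3.86% lower, so the count among these factors was near the background. The groups did not overlap for 5 of the 9, against 46.8% of all tested genes. The median log2 fold change of the 9 was -0.07, and that of all tested genes 0.005. Tox2 was below the minimum level for testing, RPKM of at least 1 in at least 2 libraries.

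**Figure D1:**
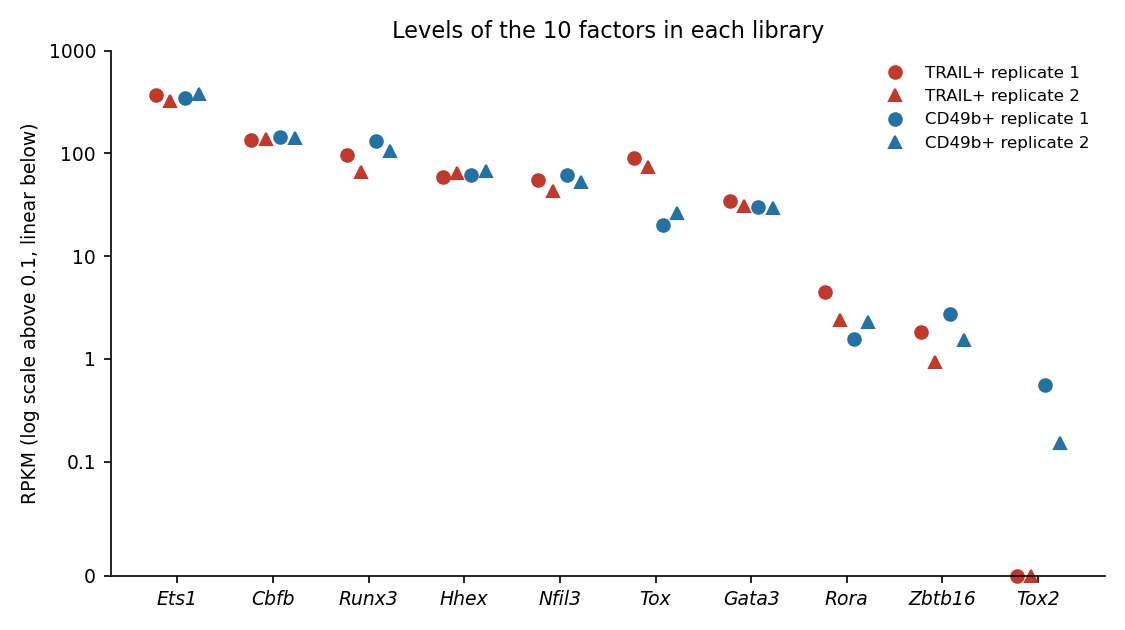
RPKM (read number per gene length and library depth) of each of the 10 factors in the 4 libraries, on an axis that is logarithmic above 0.1, with TRAIL+ in red and CD49b+ in blue. Levels ran from 378 RPKM for Ets1 to 0 for Tox2, and Tox is the gene whose red and blue points lie farthest apart among those above 1 RPKM.

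Nfil3 was expressed in every library, at levels that overlapped between the subsets. It stood at 54.7 and 42.9 RPKM in TRAIL+ replicates 1 and 2 and at 61.6 and 53.2 RPKM in CD49b+ replicates 1 and 2, on 324 to 520 reads a library. The groups overlapped, since TRAIL+ replicate 1 lay above CD49b+ replicate 2, and TRAIL+ replicate 2 was the lowest. Group means were 48.8 ± 8.33 and 57.4 ± 5.96 RPKM (SD, n = 2 each), and the 95% interval of the log2 fold change ran from -0.71 to 0.24 (limma adjusted p = 0.627). Differences inside this interval cannot be told from none with these libraries. In both groups together Nfil3 lay above 84.3% of the tested genes in mean RPKM.

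The tested genes whose profile over the 4 libraries lay nearest to that of Nfil3 were Casc3, Cxxc1 and Ap3b1, at Euclidean distances of 0.0193, 0.0201 and 0.0377 between centred log2(RPKM + 1) values. A flat profile has many neighbours, and 1451 tested genes lay within a distance of 0.3. The tested PAR bZIP factors, which bind sites like those of Nfil3, did not pass the test either. Of 4 genes listed, Nfil3 itself among them, 3 were tested. Of these, 0 were called in either direction and 0 had an unadjusted limma p under 0.05, against 8.62% and 20.0% of all tested genes. With 3 genes, counts of 0 lie near these shares. Nfil3 was the most abundant of them, followed by Tef at 19.7 to 21.5 RPKM and Dbp at 4.49 to 7.07 RPKM, and Hlf was under 1 RPKM in every library.

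Tox, an HMG-box factor required early in NK cell development and in thymic selection of T cells, was 3.52-fold higher in TRAIL+ cells by group means. It stood at 90.4 and 73.5 RPKM in the TRAIL+ libraries and at 20.3 and 26.2 RPKM in the CD49b+ libraries. Every TRAIL+ value was above every CD49b+ value, and the gap between groups was larger than the spread within either. Group means were 81.9 ± 12.0 and 23.3 ± 4.17 RPKM (SD, n = 2 each). The log2 fold change was 1.78 ± 0.20 (SE, 95% interval 1.27 to 2.28, limma adjusted p = 0.00627). It rested on 1849 reads in the TRAIL+ and 541 in the CD49b+ libraries. With 1 library left out it ranged from 1.60 to 1.95, with adjusted p from 0.00175 to 0.0408.

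Most tested markers of T cells were higher in TRAIL+ cells, as Tox was. Of 10 listed, 6 were tested, of which 5 were higher in TRAIL+ cells (Cd8a, Cd3e, Cd4, Trat1 and Cd3d) and 1 was lower (Cd28). The shares over all tested genes were 4.76% higher and 3.86% lower. The summed level of the 10 markers was 80.9 and 144 RPKM in the TRAIL+ libraries and 40.8 and 43.9 in the CD49b+ libraries. Cd3d was the most abundant over the 4 libraries. In CD49b+ libraries Cd28 held the largest part, at 22.9 and 29.0 RPKM, against 10.4 and 10.1 RPKM for Cd3d. By the sum, the library with more of these markers had less Tox within TRAIL+ and more Tox within CD49b+. The CD49b+ part of this rests on Cd28, since without it the order of the CD49b+ sums turns. With 2 libraries in each group, such an order cannot show whether Tox follows these markers. Cd8a, Cd4 and Trat1 entered the test only through their TRAIL+ levels, so the filter favoured a difference and their calls are no separate support. By limma adjusted p, Cd3d no longer passed without CD49b+ replicate 1 (0.0507) or replicate 2 (0.0566), nor did Cd28 (0.058 and 0.145), and Cd4 (0.0648) and Trat1 (0.0777) no longer passed without CD49b+ replicate 2. Cd5, Cd6 and Themis were under 1 RPKM in every library, 0 of the 10 were at 0 in all libraries, and Cd8b1, the beta chain of the CD8 coreceptor, reached 1.16 RPKM. Their part in the Tox result was not tested.

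The 3 tested genes with profiles nearest to Tox were Lilr4b, a paired immunoglobulin-like receptor with near-identical copies that can share reads, St6galnac3, a sialyltransferase, and Pip5k1b, a phosphoinositide kinase. Their distances were 0.114, 0.123 and 0.123, and 21 tested genes lay within 0.3. Lilr4b stood at 18.9 and 16.9 RPKM in TRAIL+ and at 3.78 and 5.42 RPKM in CD49b+ libraries.

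Tox2, the close relative of Tox that acts in NK cell maturation, was almost absent. It was listed at 0 RPKM in both TRAIL+ libraries and stood at 0.561 and 0.151 RPKM in the CD49b+ libraries. For a gene length of 1684 bases these are 4 reads and 1 read, so the CD49b+ signal rests on 5 reads in all. With TRAIL+ set at a floor of 3 reads for the group as a whole, equal to 0.227 RPKM, CD49b+ replicate 1 lay above the floor and CD49b+ replicate 2 below it, so no fold is given. Tox4, a relative expressed in many tissues, was at 25.5 to 29.6 RPKM in all libraries and Tox3 was listed at 0.

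The division of the TOX family followed the Tox values. Tox made up 75.3% and 74.3% of the family's summed RPKM in the TRAIL+ libraries, and 41.7% and 48.3% in the CD49b+ libraries. The difference of group means was 29.8 percentage points, and 26.5 to 33.1 with 1 library left out. In CD49b+ cells Tox4 held the larger part, at 57.1% and 51.4%. These shares are no separate support for the Tox result. An exact permutation test of 2 against 2 libraries cannot go below p = 0.33, so shares were not tested.

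**Figure D2:**
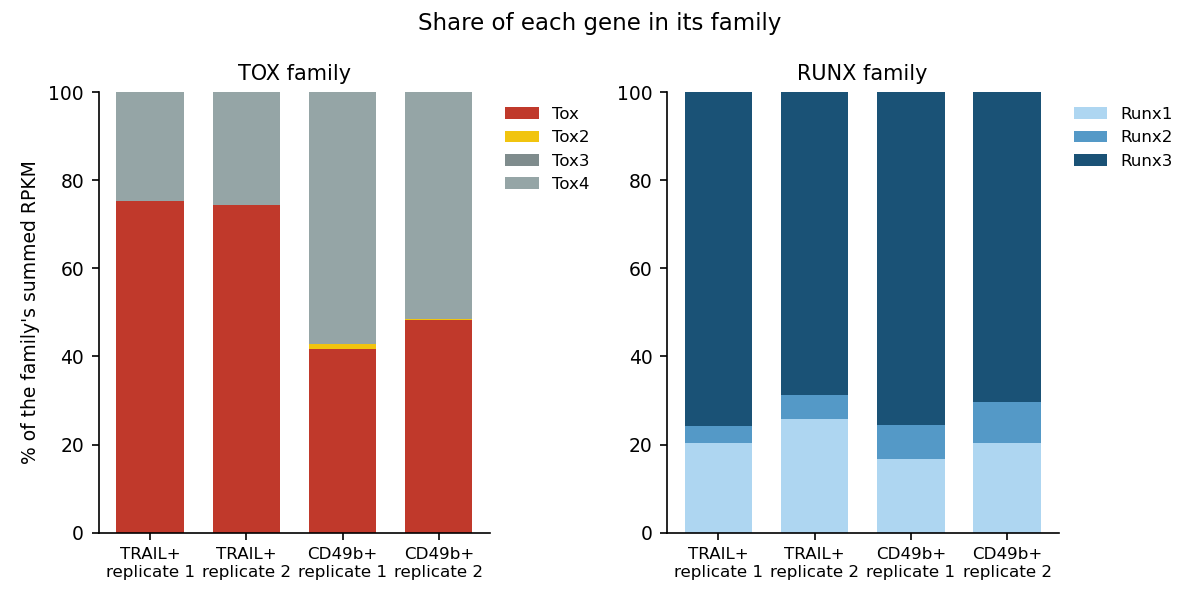
Bars give each gene's percentage of the summed RPKM of its family in each of the 4 libraries, for TOX (left) and RUNX (right). The Tox part is 75.3% and 74.3% in the TRAIL+ bars and 41.7% and 48.3% in the CD49b+ bars, and Runx3 took 68.8% to 75.8% of the RUNX sum in all 4 bars.

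Runx3 and its partner Cbfb were abundant in both subsets. Runx3 is a runt-domain factor of cytotoxic lymphocytes, and Cbfb encodes the subunit that does not touch DNA itself but stabilises its binding. Runx3 stood at 95.5 and 65.4 RPKM in the TRAIL+ libraries and at 132 and 105 RPKM in the CD49b+ libraries. Every CD49b+ value was above every TRAIL+ value, but the gap between groups, from 95.5 to 105 RPKM, was smaller than the spread within either group. The log2 fold change was -0.57 ± 0.24 (SE, 95% interval -1.17 to 0.03) and missed the threshold (limma adjusted p = 0.28). Without TRAIL+ replicate 1 it was -0.84 and passed (adjusted p = 0.0295), and without each other library in turn adjusted p was 0.441 to 1.0.

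Cbfb stood at 135 and 140 RPKM in TRAIL+ and at 145 and 143 RPKM in CD49b+ libraries, the second most abundant of the 10 in both groups. Its libraries lay within a narrow range and the groups did not overlap, yet the log2 fold change was -0.07 ± 0.15 (SE, limma adjusted p = 0.891). The summed RPKM of Runx1, Runx2 and Runx3 was 0.932 and 0.681 times that of Cbfb in the TRAIL+ libraries and 1.2 and 1.05 times in the CD49b+ libraries.

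Among the other genes of the RUNX group, Runx2 was lower in TRAIL+ cells. Of 12 listed (Runx genes, Cbfb and corepressors of the ETO and Groucho families among them), 10 were tested, 0 rose and 1 fell. An unadjusted limma p under 0.05 was found for 3. Among all tested genes, 8.62% were called and 20.0% had such a p. Runx2, best known for bone formation, stood at 4.67 and 5.10 RPKM in TRAIL+ and at 13.6 and 13.8 RPKM in CD49b+ libraries, a 2.81-fold difference (log2 fold change -1.32 ± 0.19, SE, limma adjusted p = 0.012). It no longer passed without CD49b+ replicate 1 (adjusted p = 0.127) or without CD49b+ replicate 2 (0.132). Runx1, which acts in blood stem cells and T cells, was at 24.5 to 30.5 RPKM and its log2 fold change was -0.24 (adjusted p = 0.516). Runx3 kept a like share of the family in both subsets, at 75.8% and 68.8% in TRAIL+ and 75.5% and 70.4% in CD49b+ libraries.

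Ets1 was the most abundant of the 10 in both groups. It is an ETS-domain factor needed for NK cell numbers and for Tbx21 and Id2 expression. It stood at 369 and 325 RPKM in TRAIL+ and at 347 and 378 RPKM in CD49b+ libraries, above 98.4% of tested genes in mean level. The groups overlapped, with the lowest value in TRAIL+ and the highest in CD49b+. The log2 fold change was -0.06 ± 0.18 (SE, 95% interval -0.53 to 0.40, limma adjusted p = 0.914), and without TRAIL+ replicate 2 its sign turned, to 0.026 (adjusted p = 0.956). Ets1 alone supplied 42.3% to 46.5% of the summed RPKM of the 18 ETS genes listed.

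Of these 18 ETS genes, 17 were tested, 1 rose and 1 fell, while 8.62% of all tested genes were called. Etv3, a repressor of the ETS family, stood at 45.1 and 36.5 RPKM in TRAIL+ and at 13.7 and 12.6 RPKM in CD49b+ libraries (3.10-fold by group means, limma adjusted p = 0.00707), a call lost without CD49b+ replicate 2 (0.0562). Erf, another ETS repressor, went the other way, at 4.83 and 2.86 against 11.9 and 12.0 RPKM (limma adjusted p = 0.0282). It no longer passed without CD49b+ replicate 1 (0.137), without CD49b+ replicate 2 (0.133) and with no filter on low values (0.0639). Elf4, an ETS factor of NK and CD8 T cells, was at 94.0 and 71.4 against 138 and 131 RPKM and did not pass (adjusted p = 0.0974). It was named after its value was seen.

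Hhex and Gata3 differed little between libraries. Hhex, a homeobox factor of blood and liver development, stood at 59.6 and 63.8 RPKM in TRAIL+ and at 61.9 and 67.5 RPKM in CD49b+ libraries. Its groups overlapped, and the log2 fold change was -0.07 ± 0.15 (SE, 95% interval -0.45 to 0.32, limma adjusted p = 0.897). Gata3, a zinc finger factor of T cells and innate lymphoid cells, stood at 34.7 and 30.8 RPKM in TRAIL+ and at 30.4 and 29.2 RPKM in CD49b+ libraries. All 4 values lay within a few RPKM of each other, and although the groups did not overlap the log2 fold change was 0.13 ± 0.16 (SE, 95% interval -0.27 to 0.53, limma adjusted p = 0.776). Gata1 was listed at 0 in every library and Gata2 at 0 in all but CD49b+ replicate 1, so Gata3 held 99.5% to 100% of the GATA sum. Of 8 GATA factors and cofactors listed, 4 were tested. Of these, 0 were called and 0 had an unadjusted limma p under 0.05, against 8.62% and 20.0% of all tested genes. Zfpm1, which encodes the GATA cofactor FOG1, was the most abundant, at 41.9 to 81.3 RPKM, and CD49b+ and TRAIL+ values overlapped.

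Rora and Zbtb16 were near the lower end of the tested range, above 12.9% and 7.1% of tested genes. Rora, a nuclear receptor required for group 2 innate lymphoid cells (ILC2), stood at 4.45 and 2.39 RPKM in TRAIL+ and at 1.57 and 2.30 RPKM in CD49b+ libraries. TRAIL+ replicate 1 was the high library and the other TRAIL+ value lay next to the upper CD49b+ one. The log2 fold change was 0.56 ± 0.31 (SE, 95% interval -0.22 to 1.35, limma adjusted p = 0.431), and adjusted p with 1 library left out was 0.107 to 1.0. Its relative Rorb was listed at 0. Of the ROR and REV-ERB genes listed, 3 were tested. Of these, 0 were called and 0 had an unadjusted limma p under 0.05, against 8.62% and 20.0% of all tested genes. Nr1d2, a REV-ERB repressor that competes with ROR for the same sites, was the most abundant at 15.7 to 19.7 RPKM.

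Zbtb16 encodes PLZF, the BTB zinc finger factor of innate lymphoid precursors and NKT cells. It stood at 1.82 and 0.928 RPKM in TRAIL+ and at 2.72 and 1.54 RPKM in CD49b+ libraries, on 18 to 59 reads a library. The groups overlapped, and the log2 fold change was -0.40 ± 0.32 (SE, 95% interval -1.20 to 0.40, limma adjusted p = 0.625). Among the 12 BTB zinc finger genes listed, 11 were tested, 1 rose and 0 fell, and 2 had an unadjusted limma p under 0.05. The shares over all tested genes were 8.62% called and 20.0% with such a p. The riser was Hic1, a repressor that acts in tissue-resident lymphocytes of the gut, at 36.4 and 29.8 RPKM in TRAIL+ and 3.26 and 3.22 RPKM in CD49b+ libraries (10.2-fold, log2 fold change 3.0 ± 0.19, SE, limma adjusted p = 0.00107). The most abundant of the list, Zbtb7a, was at 44.4 and 23.5 against 52.6 and 35.4 RPKM and did not pass (adjusted p = 0.656).

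Because Gata3, Rora and Zbtb16 also mark other lymphoid cells, markers of these were read beside them. All 9 ILC2 markers listed were under 1 RPKM in every library, Il5, Il13 and Nmur1 were at 0, and their sum was 0.374 to 1.397 RPKM. Of the markers of group 3 innate lymphoid cells (ILC3), Il17a, Il17f, Il22 and Il23r were at 0, and Kit, which NK cells also carry, reached 12.5 RPKM. The 1 of them tested was not called.

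**Figure D3:**
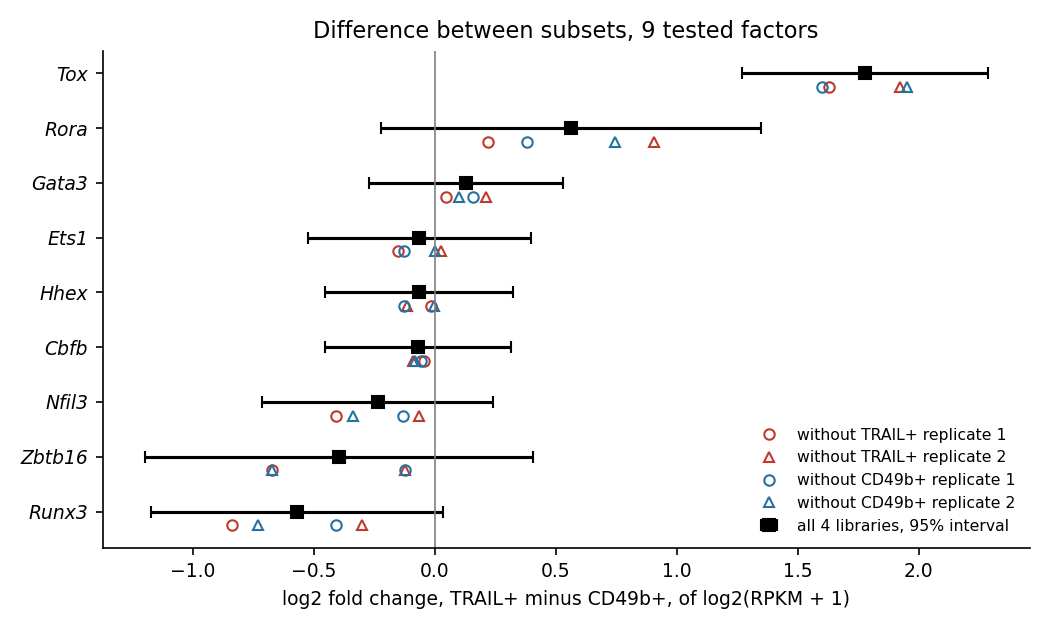
Log2 fold change (TRAIL+ minus CD49b+) of the 9 tested factors on the log2(RPKM + 1) scale, with 95% limma intervals in black and values with 1 library left out as open symbols below. The interval of Tox, 1.27 to 2.28, is the one that lies wholly on one side of 0, and that of Runx3 ends at 0.03.

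The order of the levels was alike at its upper end in both subsets. In TRAIL+ cells the factors ran Ets1, Cbfb, Tox, Runx3, Hhex, Nfil3, Gata3, Rora, Zbtb16 and Tox2, and the values of Tox and Runx3 overlapped. In CD49b+ cells they ran Ets1, Cbfb, Runx3, Hhex, Nfil3, Gata3, Tox, Zbtb16, Rora and Tox2, and those of Zbtb16 and Rora overlapped. Other neighbours in each order did not overlap over the 2 libraries. Tox took the third place in TRAIL+ and the seventh in CD49b+ cells.

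**Figure D4:**
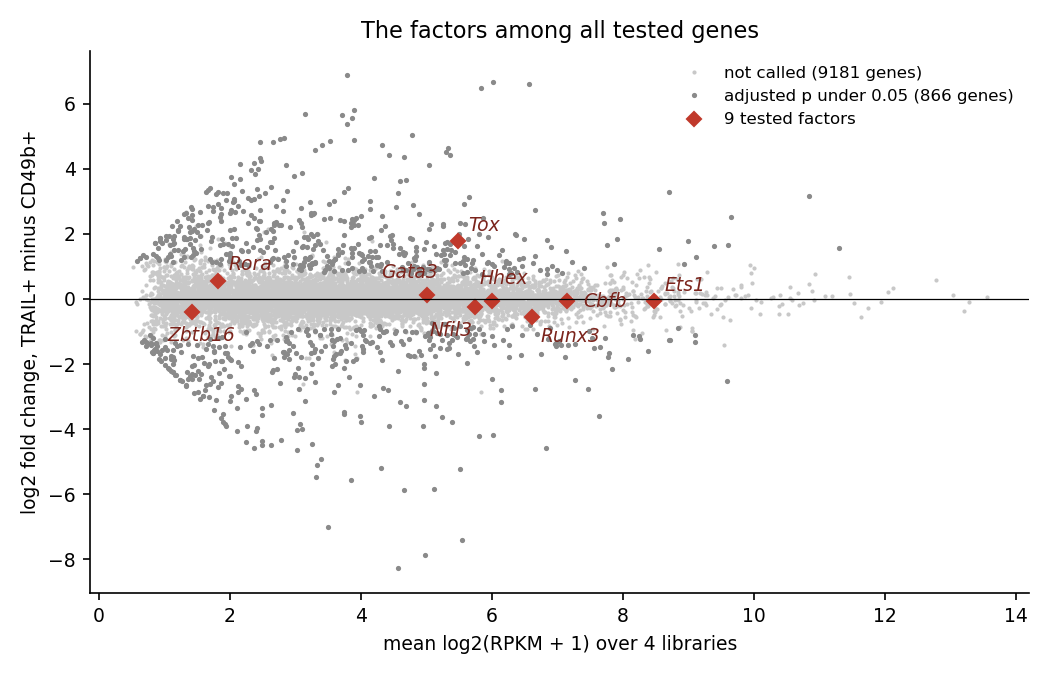
Log2 fold change (TRAIL+ minus CD49b+) against mean log2(RPKM + 1) for the 10047 tested genes, with the 9 tested factors as red diamonds. Tox, at 1.78, lies among the 866 called genes in dark grey, and the other 8 lie in the light grey cloud of uncalled genes.

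Other factors of early NK and innate lymphoid commitment, listed beside the 10, moved both ways. Of 18 listed, 17 were tested, 2 rose (Ahr and Bcl11b) and 6 fell (Eomes, Mef2c, Myb, Lef1, Tcf7 and Sox4) in TRAIL+ cells. Among all tested genes, 4.76% rose and 3.86% fell. Zfp683 was not analysed here. Ahr, the aryl hydrocarbon receptor, stood at 12.4 and 14.5 against 1.85 and 1.85 RPKM (7.29-fold, limma adjusted p = 0.00285). Bcl11b, a zinc finger factor of T cells and ILC2, stood at 13.1 and 7.43 against 0.894 and 1.44 RPKM (8.79-fold, limma adjusted p = 0.0113). It entered the test only through its TRAIL+ levels, so the filter favoured a difference and its call is no separate support.

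Eomes, the T-box factor of conventional NK cells placed below Nfil3, stood at 1.98 and 2.70 RPKM in TRAIL+ and at 199 and 184 RPKM in CD49b+ libraries (81.9-fold, limma adjusted p = 0.000301). The Nfil3 ranges overlapped between the groups, with a 95% interval of its log2 fold change from -0.71 to 0.24. The part of Nfil3 in the Eomes difference was not tested. Tcf7 and Lef1, the HMG-box factors that act with beta-catenin, fell 3.52-fold and 6.25-fold by group means (limma adjusted p = 0.00248 and 0.00788). Myb, a progenitor factor, had 0 reads over TRAIL+ and 106 over CD49b+ libraries, at least 34.0-fold lower if the TRAIL+ group is set at the 3-read floor. Sox4 had 2 reads against 100, a 48.1-fold ratio (95% exact interval for counting error 13.0 to 403). Both TRAIL+ reads of Sox4 were in replicate 2, and its fold of group means was 46.4, or 23.2 without TRAIL+ replicate 1, while without TRAIL+ replicate 2 the TRAIL+ group was at 0. Mef2c had 17 reads against 388, a ratio of 22.0 (13.5 to 38.1), and its fold of group means was 22.3, or 59.5 without TRAIL+ replicate 1 and 13.7 without TRAIL+ replicate 2. Myb, Sox4 and Mef2c entered the test only through their CD49b+ levels, so the filter favoured a difference and their calls are no separate support. Id2, the inhibitor of E proteins and the most abundant of the list, was at 848 and 1272 against 661 and 890 RPKM and did not pass (limma adjusted p = 0.546).

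Of 12 genes of interleukin-15 and interleukin-7 signalling upstream of Nfil3, all were tested, 1 rose and 1 fell. An unadjusted limma p under 0.05 was found for 4 of the 12. Over all tested genes, 8.62% were called and 20.0% had such a p. Il2rb, the receptor subunit that binds interleukin-15 and the most abundant of the list, stood at 2147 and 2139 RPKM in TRAIL+ and at 1508 and 1608 RPKM in CD49b+ libraries (limma adjusted p = 0.413). Il7r, the interleukin-7 receptor chain, was higher, at 25.6 and 32.6 against 9.10 and 13.9 RPKM (2.53-fold, adjusted p = 0.0392). Jak1, a kinase of both receptors, was lower, at 241.1 and 162 against 522 and 423 RPKM (2.34-fold, adjusted p = 0.0441). Both calls are near the threshold: without CD49b+ replicate 1 and without CD49b+ replicate 2 adjusted p was 0.256 and 0.0553 for Il7r, and 0.363 and 0.178 for Jak1. They were lost as well with no filter on low values (0.0755 and 0.0843), Il7r with median scaling (0.051), and Jak1 with quantile normalization (0.0784) and without a variance trend (0.0501).

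Of 10 genes placed downstream of these factors or of interleukin-15, 9 were tested, 2 rose (Cish and Il7r) and 1 fell (Eomes). Cish, a STAT5 target whose product restrains interleukin-15 signalling, stood at 149 and 145 RPKM in TRAIL+ and at 15.5 and 16.6 RPKM in CD49b+ libraries (9.15-fold, limma adjusted p = 0.000605). Counted once, the listed relatives, partners and signals outside the 10 came to 86 genes with a row. Of the 73 tested, 6 rose and 9 fell, with a median log2 fold change of -0.12. These counts include Bcl11b, Myb, Sox4 and Mef2c, for which the filter favoured a difference. Over all tested genes, 4.76% rose and 3.86% fell.

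**Figure D5:**
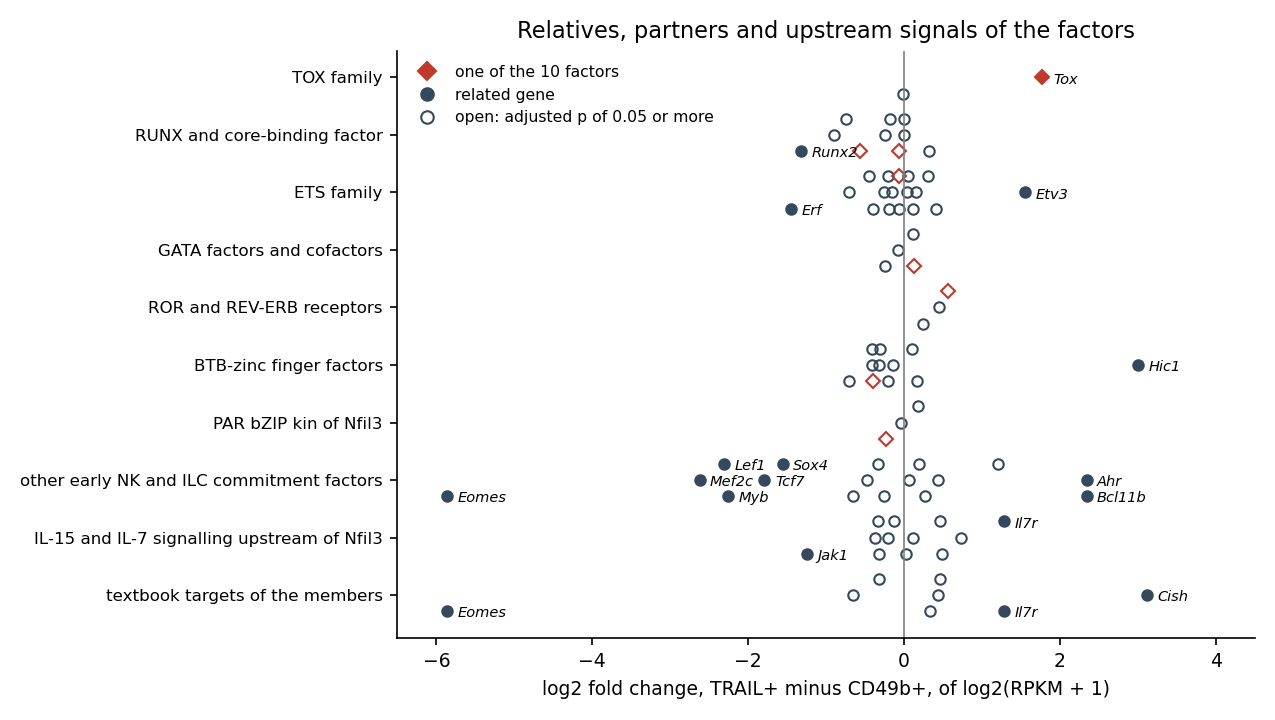
Log2 fold change (TRAIL+ minus CD49b+) of the tested genes of each list, with filled symbols for adjusted p under 0.05, red diamonds for the 10 factors and dark circles for other genes, the gate gene Ncr1 left out. Of the tested genes in the row of other commitment factors 8 of 17 are filled, and Eomes lies farthest from 0. Among all tested genes 8.62% were called. Of the 8, Bcl11b, Myb, Sox4 and Mef2c entered the test only through the group where they are high. The filter favoured a difference for them, so the count of 8 is no separate support.

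The libraries held 3786497 to 4232967 reads, as recovered from the smallest RPKM steps. The gate genes were read to check the labels: Tnfsf10 (TRAIL) was at 189 to 208 against 6.94 to 7.26 RPKM, Itga2 (CD49b) at 1.55 to 5.26 against 37.0 to 52.1, and Klrb1c (NK1.1) and Ncr1 (NKp46) were at 901 RPKM or more in all 4. Markers of other cells were summed per library. B-cell markers (Cd79b the most abundant) summed to 23.7 and 16.8 RPKM in the TRAIL+ libraries and to 25.2 and 13.2 in the CD49b+ libraries. Endothelial and stellate markers summed to 41.4 to 53.0 (nearly all Pecam1, which leukocytes carry too). Monocyte and Kupffer markers summed to 33.8 and 41.6 in TRAIL+ against 528 and 594 in CD49b+ libraries. Ly6c2, which NK cells also express, made up 98.2% and 99.9% of the CD49b+ sums and 47.9% and 72.5% of the TRAIL+ sums, and without it the sums were 17.6 and 11.4 in TRAIL+ against 9.73 and 0.723 in CD49b+ libraries. Hepatocyte markers summed to 103 and 102 against 43.2 and 23.4. Without Trf they summed to 19.8 and 21.9 in replicate 1 of TRAIL+ and CD49b+ and to 4.74 and 1.28 in replicate 2, so that the rest of this list was higher in replicate 1 of both groups. The called genes of these lists were Ly6c2, lower, and Trf, higher. The B-cell sums, the endothelial and stellate sums and the monocyte and Kupffer sums without Ly6c2 were also higher in replicate 1 of both groups. T-cell and ILC3 sums were higher in replicate 2 of both groups.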

How the data were processed

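Per the file headers, the authors deposited RPKM (read numbers divided by gene length and by library depth), in 1 table for each of 4 libraries of polyA RNA. Per the submitters' processing notes, TopHat 1.4.1 and build mm9 were used. How reads were counted, with which annotation and whether by strand, is not given in the sources used here, and reads of overlapping or antisense genes may be mixed. Sample titles gave group and replicate number. The gene symbol was the text before the first colon of a row's name, and RefSeq genes of GRCm38.p6 matched 20661 rows by accession, 191 by symbol and 65 by synonym, while 108 kept their own name. Sequences came from RefSeq promoter windows of that build, cut to the bases before the start.

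RPKM is not a count, so limma 3.58.1 under R 4.3.3 was run on log2(RPKM + 1) values (lmFit, eBayes with a trended prior, 2 residual degrees of freedom and a prior of 3.51). The 10047 genes that reached an RPKM of 1 in 2 or more libraries entered, p-values were adjusted by Benjamini-Hochberg over all of them, and "rose", "fell" and "called" mean an adjusted p under 0.05. Fold changes on this scale understate low genes. A plain fold divides one group's mean RPKM by the other's. An exact permutation test of 2 against 2 cannot go below 0.33 and was not used.

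Library sizes were worked out from the ratio of 1-read values between libraries. With a fitting gene length, 100% of the 13681 rows above 0 came out as whole reads (relative tolerance 1e-06), and for 81.1% of the 10859 single-accession rows that could be compared, this length was within 10% of the annotated transcript. Intervals and floors cover counting error only. The fit was also run on simulated reads drawn independently for each library. This is no check on how libraries of the same replicate number vary together.

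The members and lists were chosen with earlier results of these data known, so no p adjusted over a list is given. Lists cover relatives, partners, upstream signals and downstream genes of the factors, the sort gate, and markers of ILC2, ILC3, T cells, B cells, Kupffer cells and monocytes, neutrophils, hepatocytes, endothelial and stellate cells, and erythroid cells and platelets. Named were all 10 factors, every called gene of the related lists, the most abundant gene of each list, the gate genes, and the 3 genes nearest in profile to Nfil3 and to each called factor. Relatives named at low or flat levels, single markers and Elf4 were added after their values were seen. The values of 1 listed gene are not reported here. Alternatives were other pseudocounts, filters, scalings and variance models, voom on the reads, removal of a gene length trend, a replicate block, and leaving out each library.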

Additional observations from a re-analysis of the deposited data

How the results depend on the processing

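Over 14 alternatives, the 9 tested factors gave 124 values, of which 121 kept direction and side of the threshold. Tox kept its call under all 14. Runx3 passed as lower under the replicate block (adjusted p = 0.0169) and without TRAIL+ replicate 1 (0.0295), so that 1 factor was lower in place of 0 under each, and with 1 library left out the count ranged from 0 to 1. With 1 library left out the log2 fold change of Ets1 ranged from -0.15 to 0.026, turning sign without TRAIL+ replicate 2 (adjusted p = 0.956). Over all genes, 478 rose and 388 fell. The counts ranged from 245 to 777 and from 198 to 763 with 1 library left out. Under the replicate block they were 1049 and 833, and 14 in place of 9 related genes fell. Whether same-numbered libraries share mice or a sort day is not given in the sources used here: their deviations from the group means had a correlation of 0.563, and 2 pairs are too few to settle whether the numbers pair them. The cause of these shifts was not tested. With a gene length trend removed, 709 rose and 577 fell. Leaving out a library leaves 1 in a group, which is then assumed to vary like the others. At 18 to 59 reads a library for Zbtb16 and 0 to 4 for Tox2, depth limits what could be seen.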

Other observations

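Replicates of the same group differed by more than counting error for several of the factors. Runx3 was 1.46 times as high in TRAIL+ replicate 1 as in replicate 2 (exact 95% counting interval 1.35 to 1.59) and 1.25 times (1.18 to 1.34) in the CD49b+ libraries. Zbtb16 was 1.96 times (1.09 to 3.65) and 1.77 times (1.13 to 2.83), and Nfil3 1.27 times (1.1 to 1.48) and 1.16 times (1.02 to 1.32). Rora went in opposite directions, 1.86 times (1.46 to 2.37) in TRAIL+ and 0.681 times (0.501 to 0.923) in CD49b+ libraries, as did Tox at 1.23 times (1.12 to 1.35) and 0.775 times (0.652 to 0.921). Ets1 also went in opposite directions, at 1.13 times (1.1 to 1.17) in TRAIL+ and 0.916 times (0.887 to 0.946) in CD49b+ libraries. For Cbfb, Hhex and Gata3 the interval held 1 in both groups.

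Markers of neutrophils and of erythroid cells and platelets also followed the number rather than the subset. Neutrophil markers, of which S100a9 was the most abundant, summed to 26.0 and 29.3 RPKM in replicate 1 of TRAIL+ and CD49b+ and to 4.99 and 0.644 RPKM in replicate 2. Erythroid and platelet markers, mostly Alas2, summed to 10.3 and 8.66 RPKM in replicate 1 and to 3.66 and 0.584 RPKM in replicate 2. The called genes of these lists number 0 of 3 and 0 of 1 tested by limma, and 0 had an unadjusted p under 0.05. The shares of all tested genes were 8.62% and 20.0%. The part of these markers in the replicate differences of the factors was not tested.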
